A study of Mus musculus with 6 samples.

Results

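Cholesterol is made from acetyl-CoA through mevalonate, squalene and lanosterol, and its level in the cell is held by a feedback loop. When sterols in the endoplasmic reticulum fall, the escort protein Scap carries the transcription factor encoded by Srebf2 to the Golgi for activation, and this factor then turns on the enzymes of the pathway together. When sterols are plentiful, Insig proteins hold Scap back, and oxysterols activate the liver X receptors, which turn on exporters. In the intestine, Npc1l1 takes sterols up from the lumen, Abcg5 and Abcg8 together return them to it, and Soat2 esterifies cholesterol for packaging into lipoproteins. The values described here are those of 35 genes of cholesterol synthesis and sterol handling, matched by symbol among the 24346 gene entries of each library. All 35 symbols were found, and 32 passed the filter on low values, which asked for 1 FPKM or more in 2 or more libraries. The members were listed by function, with earlier results of these data known.

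RNA was measured in colon epithelial cells of untreated mice of the inbred C57BL/6J strain, wild type and of unstated age. The libraries were 1 female and 1 male from distal colon, 1 female and 1 male from middle colon, and 1 female and 1 male from proximal colon, so n = 2 per region. The number of mice behind a library, and whether the regions of a sex share mice, are not stated, so a p-value here reflects only how these 6 libraries vary, and part of that may be technical. Levels are in FPKM, fragments scaled to transcript length and to library size, and so can be compared between genes. Total FPKM ran from 546269 to 612818 per library. The spacing of the lowest values gave an approximate depth, by library, of 7.84 to 9.92 fragments for each FPKM and kilobase of transcript, so that 1 fragment of a transcript of 2000 bases is worth 0.056 to 0.0709 FPKM. Depth has no exact record in FPKM, so no counting interval is given. Epithelial markers were present in every library, with summed FPKM of 8125.5 to 9829.6 for the 7 genes Epcam, Krt8, Krt18, Krt19, Cdh1, Vil1 and Cldn7. Summed markers of fibroblasts, endothelium, macrophages, smooth muscle, B and plasma cells, and enteric glia and neurons were between 0.197 and 9.03 FPKM.

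The promoters of the enzymes share short motifs. RefSeq promoter windows (GRCm38.p6, 250 bases before to 50 after a transcript start) were found for 29 of the 35 members, including 16 of the 19 synthesis enzymes. The CCAAT box (letters CCAAT, either strand), bound by the factor NF-Y, was present in at least 1 window of 15 of these 16 enzymes, or 93.8%. It was present for 42.8% of the 9033 kept genes that had a window. Acat2 was the enzyme without it. The GC box (GGGCGG, either strand) was present for 15 of the 16 enzymes, against 68.8% of the kept genes. A core form of the sterol regulatory element, searched as TCACNCCAC on either strand, was found in 1 of the 16, Hmgcs1, against 1.43% of the kept genes. These are matches of letters, and binding was not measured.

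The stretches upstream of 3 enzymes are shown because they carry these boxes. Hmgcs1 holds the single match to the sterol regulatory element core, Mvk holds 5 CCAAT boxes in a short stretch, and Ebp is an enzyme whose transcript was higher in distal colon. Capitals mark CCAAT boxes (CCAAT or its complement ATTGG) and, in Hmgcs1, also TCACCCCAC, the match to the core. Each stretch ends at the base before the RefSeq transcript start and runs 5′ to 3′ on the strand of the gene. They lie at chr13:119690101-119690350 (plus strand), chr5:114444069-114444268 (plus strand) and chrX:8193513-8193762 (minus strand).
Hmgcs1: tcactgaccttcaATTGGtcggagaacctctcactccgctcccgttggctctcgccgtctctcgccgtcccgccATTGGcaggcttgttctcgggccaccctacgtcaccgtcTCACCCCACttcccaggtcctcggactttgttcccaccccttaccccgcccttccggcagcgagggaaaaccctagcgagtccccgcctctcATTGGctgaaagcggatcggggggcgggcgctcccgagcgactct
Mvk: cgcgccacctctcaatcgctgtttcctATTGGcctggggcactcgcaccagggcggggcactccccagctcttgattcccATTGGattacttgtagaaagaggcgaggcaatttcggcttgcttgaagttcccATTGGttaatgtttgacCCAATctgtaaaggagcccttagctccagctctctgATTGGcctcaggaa
Ebp: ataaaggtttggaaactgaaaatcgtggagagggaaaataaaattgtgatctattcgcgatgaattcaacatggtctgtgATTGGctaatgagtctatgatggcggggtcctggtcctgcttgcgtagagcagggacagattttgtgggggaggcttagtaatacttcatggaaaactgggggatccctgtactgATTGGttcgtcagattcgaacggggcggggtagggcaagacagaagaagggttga

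Most members of the cholesterol pathway did not pass the test along the colon, while a pair of late enzymes were higher in distal colon. These were Dhcr7 and Ebp, which act in the last steps of synthesis. Abcg8, a subunit of the luminal sterol exporter, was also called higher in distal than in proximal colon, but it passed the filter on low values through its distal libraries. No member was called lower. With no filter none of the 3 was called, and with 1 of the distal libraries left out none was called either. These 3 of 32 tested members compare with 6.47% of all 11815 tested genes called higher and 7.64% called lower in the same comparison, with 14.1% called in either direction. The median log2 difference of the members, distal minus proximal, was 0.05, beside 0.01 over all tested genes. By fitted value 17 members were higher and 15 lower. At an unadjusted p under 0.05 were 9 of the 32 members, beside 3451 of all 11815 tested genes. Between middle and proximal colon limma called 0 members (background 2.45%, with 1.19% higher and 1.25% lower). Of the 32 members 6 were at an unadjusted p under 0.05, beside 2164 of all 11815 tested genes. Between distal and middle colon it called 0 (background 0.499%, with 0.11% higher and 0.389% lower). There 3 of the 32 members were at an unadjusted p under 0.05, beside 1499 of the 11815 genes. Calls are limma tests on log2(FPKM + 1) with region and sex as terms, at a Benjamini-Hochberg adjusted p under 0.05 over all tested genes.

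**Figure D1:**
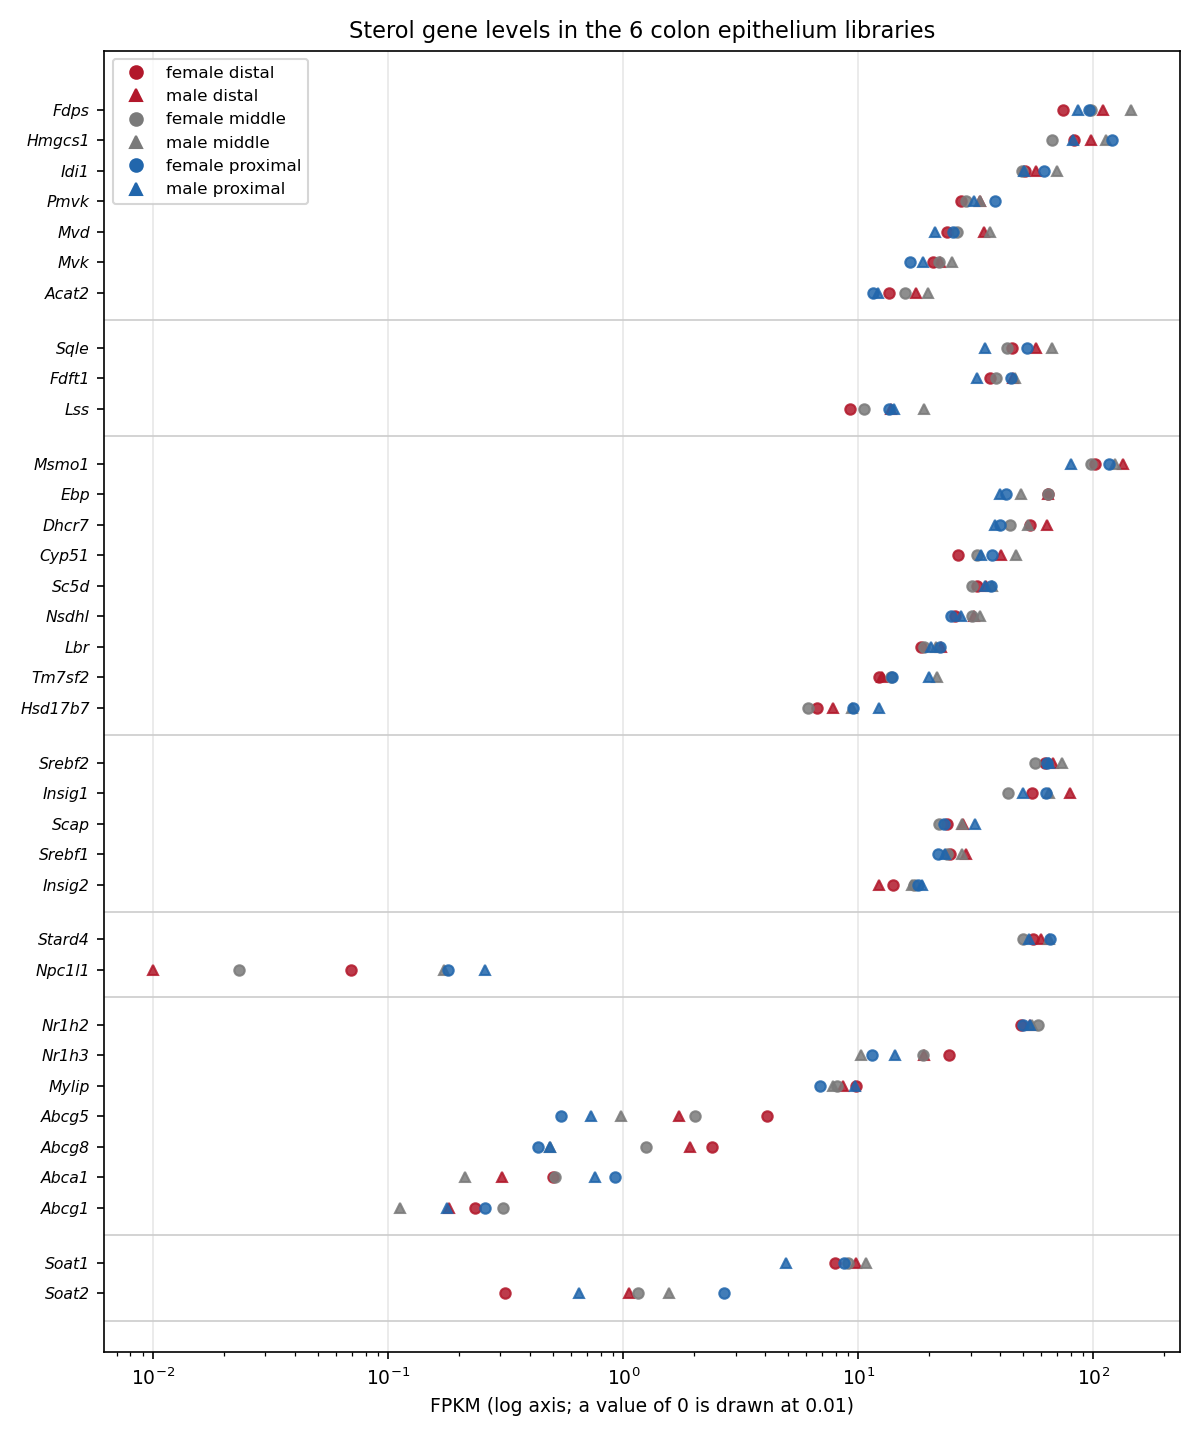
Level of each of the 35 members in each of the 6 libraries, as FPKM on a log axis, with genes grouped by role and colours for regions (circles female, triangles male). Values of the synthesis enzymes lay between 6.11 and 144 FPKM with the regions largely intermixed, whereas Abcg5 and Abcg8 were highest in the female distal library.

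The enzymes from acetyl-CoA to farnesyl diphosphate were well expressed in all 3 regions. Fdps, which makes farnesyl diphosphate, had the highest mean of them. It stood at 74.2 FPKM in the female and 110.1 FPKM in the male distal library, 97.6 and 144 FPKM in the female and male middle libraries, and 96.0 and 85.7 FPKM in the female and male proximal libraries. The regions overlapped between distal and proximal colon, and the male middle library was the highest. The distal minus proximal log2 difference was -0.01 (95% interval -0.51 to 0.50, limma adjusted p = 0.989). Hmgcs1, which makes HMG-CoA ahead of the committed step, stood at 82.9 and 97.5 FPKM in the female and male distal libraries, 66.8 and 113 FPKM in the middle ones, and 119.8 and 81.9 FPKM in the proximal ones. Its highest library was the female proximal one and its lowest the female middle one. Its interval for distal minus proximal reached from -0.87 to 0.60 on the log2 scale (limma adjusted p = 0.806), so a change of moderate size in either direction was not detectable with these libraries. Acat2, the cytosolic thiolase that starts the route, was at 13.5 and 17.6 FPKM in the female and male distal libraries, 15.8 and 19.7 FPKM in the middle ones, and 11.6 and 12.1 FPKM in the proximal ones. Both distal and both middle libraries were above both proximal ones, yet neither difference passed the threshold (distal minus proximal 0.35, SE 0.12, limma adjusted p = 0.119; middle minus proximal 0.54, SE 0.12, limma adjusted p = 0.0882). The kinases Mvk and Pmvk, the decarboxylase Mvd and the isomerase Idi1 ranged from 16.5 to 70.1 FPKM over the 6 libraries, and none of them passed the threshold in any comparison. Mvk was also higher in both distal than in both proximal libraries.

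The squalene steps held a similar picture. Sqle, the epoxidase that commits squalene to sterols, was at 44.8 and 57.2 FPKM in the female and male distal libraries, 42.8 and 66.3 FPKM in the middle ones, and 52.1 and 34.5 FPKM in the proximal ones. The lowest and highest of its libraries were both male, from proximal and middle colon. Lss, which closes the ring to lanosterol, was at 9.23 and 13.8 FPKM in the female and male distal libraries, 10.5 and 18.9 FPKM in the middle ones, and 13.5 and 14.2 FPKM in the proximal ones. Its distal minus proximal difference was -0.27 (log2; limma adjusted p = 0.399, SE 0.19). Fdft1, the squalene synthase, reached 46.2 FPKM in the male middle library and was lowest in the male proximal one.

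Between distal and proximal colon, 2 of the 19 synthesis enzymes were called higher and 0 lower, against 6.47% and 7.64% of all tested genes. Both are among the 9 enzymes from lanosterol to cholesterol. Of these 9, 4 were higher and 5 lower by fitted value, with a median log2 difference of -0.06. Ebp (chromosome X, 8185329 to 8193512, mm10), the sterol isomerase that moves the ring double bond, was at 64.2 and 64.2 FPKM in the female and male distal libraries, 64.0 and 49.0 FPKM in the middle ones, and 42.4 and 40.1 FPKM in the proximal ones. Both distal libraries lay above the middle ones, by very little in the female case, and both middle ones above the proximal ones. It averaged 64.2 ± 0.0255 FPKM in distal and 41.2 ± 1.62 FPKM in proximal colon (mean ± SD, n = 2 each), which is 0.63 higher on the log2 scale in distal colon (limma adjusted p = 0.0295, SE 0.12). Dhcr7 (chromosome 7, 143823145 to 143848410), the reductase that yields cholesterol itself, was at 53.6 and 63.3 FPKM in the female and male distal libraries, 44.1 and 52.5 FPKM in the middle ones, and 39.9 and 38.0 FPKM in the proximal ones. The distal libraries were again above the middle and the middle above the proximal ones. The means were 58.4 ± 6.85 FPKM in distal and 38.9 ± 1.32 FPKM in proximal colon (log2 difference 0.57, SE 0.12, limma adjusted p = 0.0337). Other late enzymes did not show that order of regions. Hsd17b7, the keto-reductase of sterol demethylation, was at 6.68 and 7.79 FPKM in the female and male distal libraries, 6.11 and 9.35 FPKM in the middle ones, and 9.49 and 12.3 FPKM in the proximal ones (distal minus proximal -0.52, SE 0.13, limma adjusted p = 0.059, not past the threshold). Tm7sf2 was at 12.2 and 12.6 FPKM in the distal libraries, 13.8 and 21.6 FPKM in the middle ones, and 13.8 and 20.0 FPKM in the proximal ones, female first in each pair, and did not pass the threshold either (-0.40, SE 0.16, limma adjusted p = 0.179). Lbr, a nuclear envelope protein with the same sterol reductase activity as Tm7sf2, ranged from 18.5 to 22.4 FPKM only.

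Msmo1, the methylsterol oxidase, was the most abundant late enzyme, at 101.8 and 134 FPKM in the female and male distal libraries, 97.3 and 124 FPKM in the middle ones, and 117 and 80.3 FPKM in the proximal ones. The male distal library was the highest and the male proximal one the lowest. Its distal minus proximal difference was 0.27 (SE 0.24, limma adjusted p = 0.524). Cyp51, the lanosterol demethylase, Nsdhl, a demethylating dehydrogenase, and Sc5d, a sterol desaturase, had values from 24.7 to 46.9 FPKM without a call in any comparison. Counted without a test, 8 of the 32 members had both distal libraries above both proximal ones (Acat2, Mvk, Ebp, Dhcr7, Srebf1, Abcg5, Abcg8 and Nr1h3) and 3 had them below (Tm7sf2, Hsd17b7 and Insig2). Over all tested genes such separation occurred upwards in 30.8%, downwards in 29.5% and either way in 60.3%. In middle against proximal colon, 12 members separated upwards and 2 downwards, against 21.6% and 22.2% of all tested genes and 43.8% either way. In distal against middle colon, 5 separated upwards and 4 downwards, against 20.5% and 19.1% of all tested genes and 39.7% either way.

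**Figure D2:**
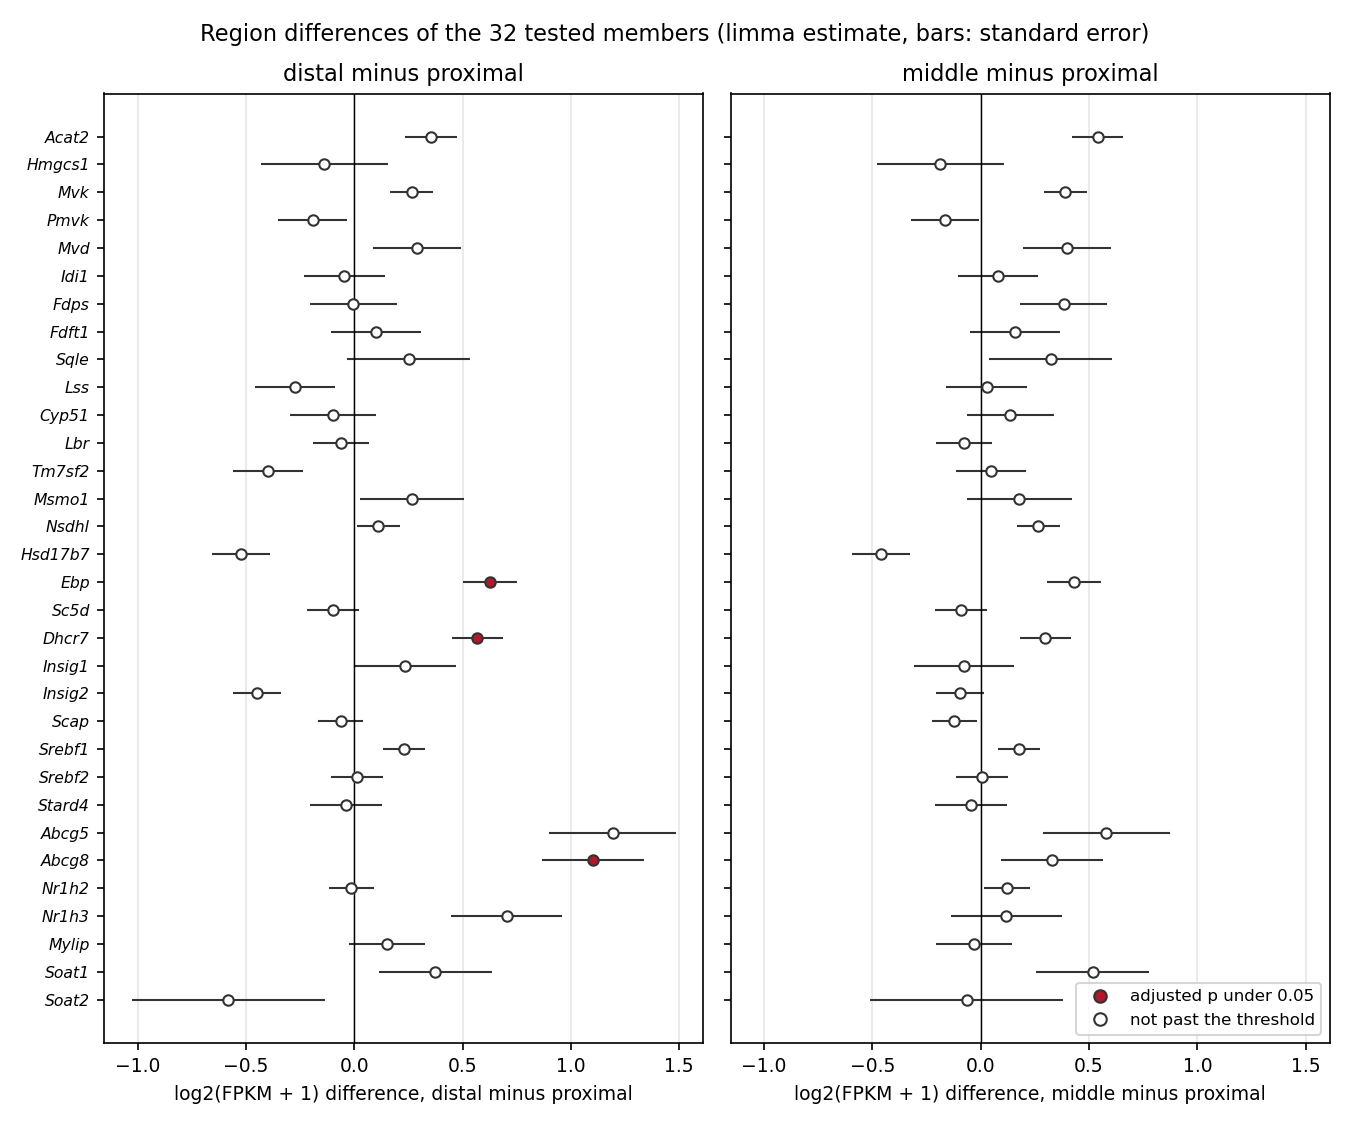
Fitted log2(FPKM + 1) difference of the 32 tested members, distal minus proximal on the left and middle minus proximal on the right, with bars for the standard error and filled points for an adjusted p under 0.05. Ebp, Dhcr7 and Abcg8 are the filled points, at 0.63, 0.57 and 1.10, all in the distal panel.

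The exporter genes had the largest fitted distal minus proximal differences of the members. Abcg8 and Abcg5 encode the subunits of a single transporter and are divergent neighbours on chromosome 17. Abcg8 was at 2.37 and 1.92 FPKM in the female and male distal libraries, 1.25 and 0.489 FPKM in the middle ones, and 0.435 and 0.486 FPKM in the proximal ones. Both distal libraries were above all the others. Its log2 difference, distal minus proximal, was 1.10 (SE 0.24, limma adjusted p = 0.036). Proximal colon was under 1 FPKM in both libraries, so the gene was tested only because distal colon was high, and with no filter it was not called (limma adjusted p = 0.0502). The added pseudocount of 1 makes the log2 difference smaller than the ratio of the levels. Abcg5 was at 4.10 and 1.73 FPKM in the female and male distal libraries, 2.01 and 0.976 FPKM in the middle ones, and 0.543 and 0.727 FPKM in the proximal ones. The female distal library was the highest and the proximal pair the lowest, but the spread within distal colon was wide. The difference was 1.19 (SE 0.29, 95% interval 0.46 to 1.93) with a limma adjusted p of 0.054, just outside the threshold, and this gene too passed the filter through distal colon. Abcg5 (84658234 to 84683011, minus strand) and Abcg8 (84676302 to 84700333, plus strand) overlap in the annotation and share 82 exonic bases on opposite strands. The counting of strand is not given in the sources used here, so their reads may not be fully told apart.

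Between the RefSeq starts of this gene pair lie 109 bases, shown because a single stretch faces both genes. It covers chr17:84683012-84683120 and is written on the strand of Abcg8. No CCAAT box, GC box or sterol regulatory element core lies within these 109 bases, so it has no capitals. The wider RefSeq windows of both genes do hold a CCAAT box, but the nearest is the same box counted in both windows. It begins at position -114 from the Abcg8 start, just outside the stretch. For Abcg5 it begins at position 1, so it lies within the transcript and not upstream of it.
Abcg5 to Abcg8: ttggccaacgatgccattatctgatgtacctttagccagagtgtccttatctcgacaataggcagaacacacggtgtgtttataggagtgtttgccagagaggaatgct

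The other genes of sterol export and the liver X receptors varied less or were barely detected. Nr1h3, the liver X receptor alpha gene, was at 24.2 and 19.1 FPKM in the female and male distal libraries, 18.9 and 10.3 FPKM in the middle ones, and 11.5 and 14.3 FPKM in the proximal ones. Both distal libraries were above both proximal ones, with a difference of 0.70 that did not pass the threshold (SE 0.26, limma adjusted p = 0.141). Nr1h2, the liver X receptor beta gene, was higher in level and nearly level across libraries, at 48.9 and 53.8 FPKM in the female and male distal libraries, 58.3 and 54.6 FPKM in the middle ones, and 50.1 and 53.6 FPKM in the proximal ones. Its distal minus proximal difference was -0.01 (95% interval -0.28 to 0.25). Mylip, a liver X receptor target that marks lipoprotein receptors for degradation, ranged from 6.84 to 9.74 FPKM. Abca1 and Abcg1, exporters to lipoprotein particles, stayed under 1 FPKM, with ranges of 0.213 to 0.923 and 0.112 to 0.306 FPKM, and were not tested. Macrophages express both, and the summed FPKM of 7 macrophage markers was between 1.79 and 9.03. The part of such cells in these values was not tested.

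None of the 5 genes of sterol sensing passed the threshold in any of the comparisons. Srebf2, which encodes the main activator of the pathway, was at 62.3 and 67.0 FPKM in the female and male distal libraries, 56.4 and 73.5 FPKM in the middle ones, and 63.5 and 64.7 FPKM in the proximal ones. Its distal minus proximal difference was 0.01 with a 95% interval of -0.29 to 0.31 on the log2 scale. Insig2 was at 14.0 and 12.3 FPKM in the female and male distal libraries, 17.2 and 16.9 FPKM in the middle ones, and 17.9 and 18.7 FPKM in the proximal ones. Both distal libraries were below all the others, and the difference lay just outside the threshold (-0.45, SE 0.11, limma adjusted p = 0.0555). Insig1, itself a target of the pathway's activator, ranged from 43.3 to 79.4 FPKM, and its highest library was the male distal one. Scap ranged from 22.0 to 31.2 FPKM and Srebf1 from 21.8 to 28.8 FPKM.

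The transcript of the luminal sterol uptake gene was barely detected, and uptake itself was not measured. Npc1l1 was at 0.0691 FPKM in the female distal library and listed at 0 in the male one. It was at 0.0232 and 0.173 FPKM in female and male middle colon and at 0.179 and 0.257 FPKM in female and male proximal colon. The female middle value is under the 0.0564 FPKM that 1 fragment of a 2000-base transcript is worth in that library. That length therefore does not serve for this gene, and no number of fragments is given. Stard4, a carrier of cholesterol within the cell, was abundant at 55.2 and 59.7 FPKM in the female and male distal libraries, 50.2 and 65.0 FPKM in the middle ones, and 65.1 and 53.3 FPKM in the proximal ones. Its regions overlapped (distal minus proximal -0.04, SE 0.17, limma adjusted p = 0.918). Soat1, the widely expressed cholesterol esterifying enzyme, was at 7.97 and 9.76 FPKM in the female and male distal libraries, 8.99 and 10.8 FPKM in the middle ones, and 8.69 and 4.93 FPKM in the proximal ones. Soat2 was low, at 0.314 and 1.06 FPKM in the distal libraries, 1.16 and 1.57 FPKM in the middle ones, and 2.67 and 0.649 FPKM in the proximal ones, female first in each pair. The regions overlapped, with the highest value in the female proximal library, and the difference was not past the threshold (-0.58, SE 0.45, limma adjusted p = 0.45).

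Much of the spread among the enzymes was between the libraries of a region. In distal colon the female library was below the male one for 19 of 19 enzymes, and in middle colon for 18 of 19, with Ebp as the exception. The Ebp difference in distal colon was close to 0. In proximal colon the female library was instead above the male one for 13 of 19. Over all tested genes the female library was above the male one in 48.4%, 49.3% and 49.8% in distal, middle and proximal colon. The median female minus male log2 difference of the 19 enzymes was -0.26 in distal, -0.34 in middle and 0.12 in proximal colon, beside medians within 0.01 of 0 over all tested genes. For 12 of the 19 (Hmgcs1, Pmvk, Mvd, Idi1, Fdps, Fdft1, Sqle, Cyp51, Lbr, Msmo1, Sc5d and Dhcr7) the female library was below the male one in distal and middle colon and above it in proximal colon. That pattern was present in 14.5% of all tested genes. Insig1, Stard4, Soat1 and Soat2 had it too. The exporter genes Abcg5 and Abcg8 and the receptor gene Nr1h3 did not, and were higher in the female library in distal and middle colon. With 1 library per sex and region, sex cannot be told apart from the single library, and a test of region by sex is not possible. Averaged over the regions, limma called 0 of 32 members between the sexes (background 0.0423%, with 0.00846% higher and 0.0339% lower in females). At an unadjusted p under 0.05 were 4 members, beside 1256 of all 11815 tested genes. The 4 were Lss, Tm7sf2, Hsd17b7 and Scap, each lower in females by fitted value.

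**Figure D3:**
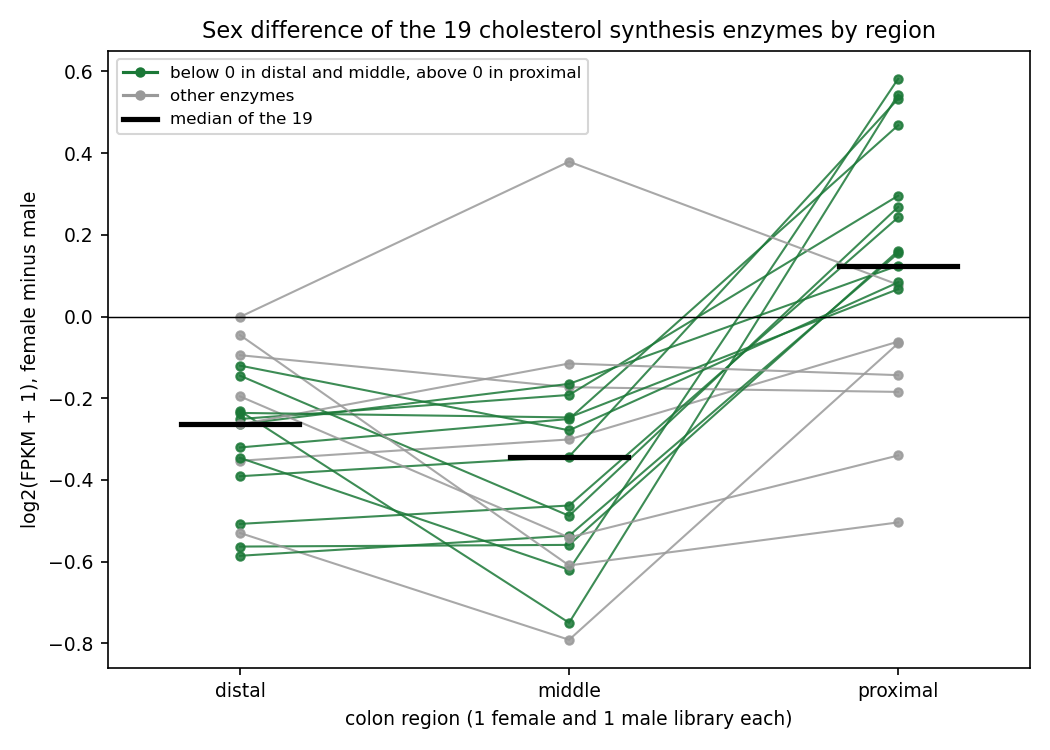
Female minus male log2(FPKM + 1) difference of each of the 19 synthesis enzymes in distal, middle and proximal colon, with 1 female and 1 male library per region, lines joining the values of a gene and black bars for the medians. All 19 lie below 0 in distal colon and 13 lie above 0 in proximal colon.

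The direction between regions often differed by sex. Between distal and proximal colon, 11 of 19 enzymes were lower in females and higher in males, and none the reverse. Over all tested genes that pattern was present in 13.9%, and opposite directions of either kind in 28.5%. The median distal minus proximal difference of the enzymes was -0.21 in females and 0.25 in males. Between middle and proximal colon the medians were -0.21 in females and 0.46 in males. There 11 of 19 enzymes were lower in females and higher in males, against 20.2% of all tested genes and 40.1% for either kind of opposite directions. Both comparisons use the same female and the same male proximal library, so their counts are not independent. The enzymes of a library are not replicates either. Between distal and middle colon 7 of 19 had opposite directions, against 38.8% of all tested genes, and 2 of these were lower in females and higher in males, against 19.5%. The male middle library held the highest value for 12 of the 19 enzymes, while it was the highest library for 14.8% of all tested genes. Male distal was the highest for 4 (15.5%), female proximal for 2 (12.1%) and male proximal for 1 (23.9%). Female distal and female middle were the highest for 0, against 20% and 13.7% of all tested genes. Without the female proximal library, 6 members were called higher in distal than in proximal colon (Mvd, Sqle, Msmo1, Dhcr7, Insig1 and Soat1) and 6 in middle than in proximal colon (Acat2, Mvd, Fdps, Sqle, Msmo1 and Soat1). Ebp and Abcg8 were not called in that run. Without either of the middle libraries Dhcr7 was not called (limma adjusted p = 0.0567 without the male and 0.0572 without the female one). Without the female distal library or without the male distal library, no member was called between distal and proximal colon, and without the male proximal library the members called were Ebp, Abcg5, Abcg8 and Nr1h3 (higher) and Soat2 (lower). In each such run the lone library of the region took its spread from the other regions.

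Summed over the 19 enzymes, FPKM was 725 and 898 in the female and male distal libraries, 735 and 967 in the middle ones, and 822 and 689 in the proximal ones. The summed FPKM of 6 surface colonocyte markers (Krt20, Slc26a3, Car4, Aqp8, Ceacam20 and Guca2a) had the same signs of the sex difference. It was 4035 and 5636 in the female and male distal libraries and 6742 and 8394 in the middle ones. The proximal sums were 8908 and 6576, female first. Averaged over the regions, 4 of the 6 markers were higher and 2 lower in females by fitted value, with a median log2 difference of 0.16. An average over the regions cannot show whether a single marker changed sign between them. Of the 19 enzymes, 1 was higher and 18 lower in females, with a median of -0.15. The 8 proliferation markers summed to 110.1 and 135 FPKM in the female and male distal libraries, 124 and 184 FPKM in the middle ones, and 198 and 201 FPKM in the proximal ones. Averaged over the regions, 8 of the 8 were lower in females by fitted value, with a median log2 difference of -0.38. None was called between the sexes. At an unadjusted limma p under 0.05 were 4 of the 8, beside 1256 of all 11815 tested genes. The 8 markers of T cells and intraepithelial lymphocytes summed to 4.54 and 3.62 FPKM in the distal libraries, 9.05 and 5.26 FPKM in the middle ones, and 17.2 and 41.5 FPKM in the proximal ones, again female first. Of the 7 tested lymphocyte markers, 2 were higher and 5 lower in females by fitted value, with a median log2 difference of -0.06. Between distal and proximal colon 5 of the 8 proliferation markers and 3 of the 7 tested lymphocyte markers fell and none rose, against 7.64% of all tested genes called lower and 6.47% called higher. Of the 6 surface markers 1 fell and none rose, but 4 were higher by fitted value, with a median log2 difference of 0.80, so their sum and their median had opposite signs. The part of these cell populations in the sterol gene values was not tested. In bulk RNA, fewer cells of a type and less RNA per cell cannot be told apart.

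**Figure D4:**
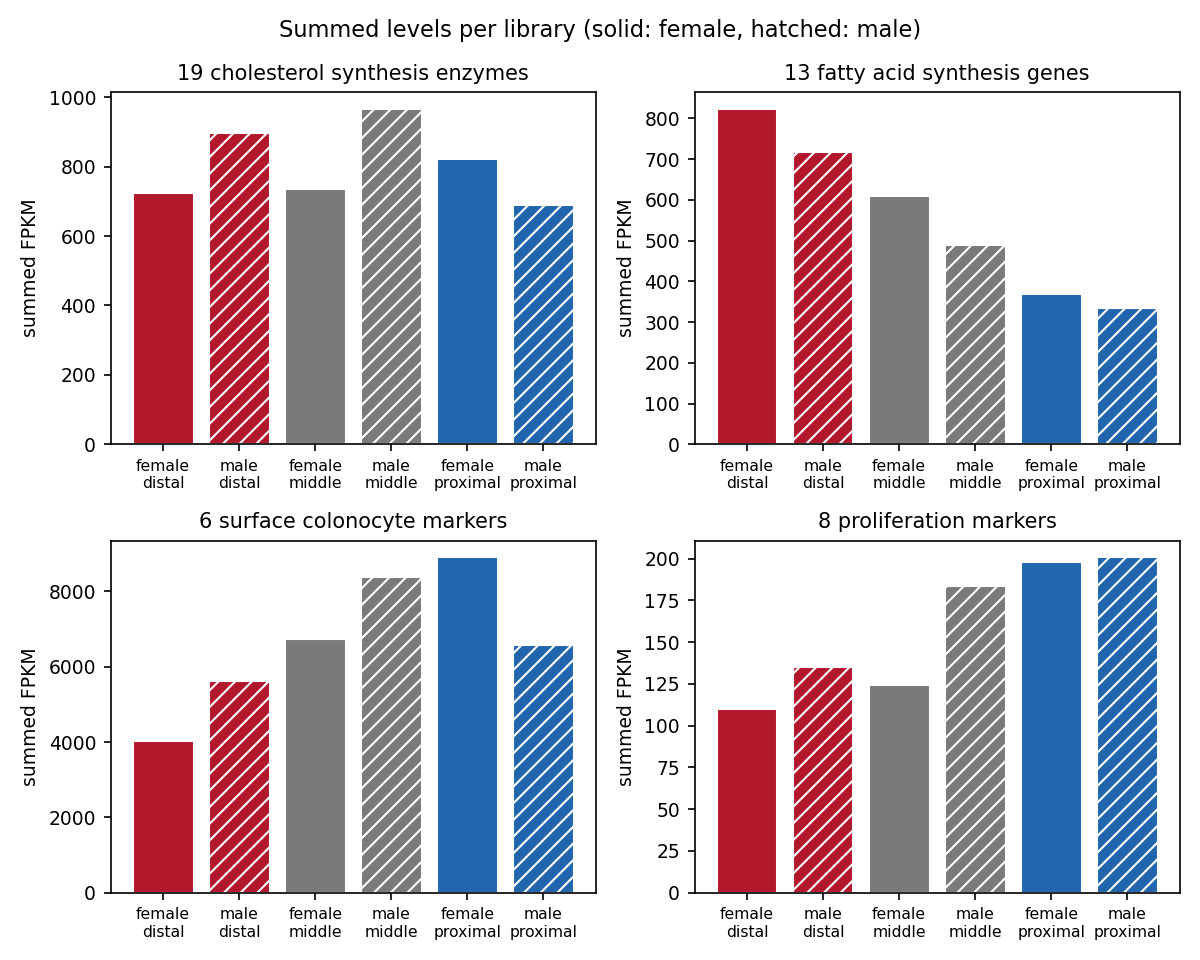
Summed FPKM per library of the 19 cholesterol synthesis enzymes, 13 fatty acid synthesis genes, 6 surface colonocyte markers and 8 proliferation markers (solid bars female, hatched bars male, all axes from 0). The enzyme sums are highest in the male middle library, whereas the fatty acid sums are highest in distal and lowest in proximal colon in both sexes, although 9 of the 13 fatty acid genes were lower in distal colon by fitted value.

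Genes of neighbouring pathways were also counted. Of 13 genes of fatty acid synthesis, 4 were higher and 3 lower in distal than in proximal colon, against the 6.47% and 7.64% of all tested genes given above. Fads2, a fatty acid desaturase, was at 297 and 225 FPKM in the female and male distal libraries, 192 and 108 FPKM in the middle ones, and 71.7 and 36.2 FPKM in the proximal ones. Its log2 difference, distal minus proximal, was 2.32 (SE 0.16, limma adjusted p = 0.00233). Me1, the NADPH-producing malic enzyme, was at 0.0659 and 0.0416 FPKM in the distal libraries, 0.629 and 2.39 FPKM in the middle ones, and 6.70 and 15.3 FPKM in the proximal ones, female first (-3.41, SE 0.32, limma adjusted p = 0.00422). Acacb, the acetyl-CoA carboxylase of the mitochondrial membrane, was at 1.25 and 1.53 FPKM in the distal libraries, 2.46 and 6.80 FPKM in the middle ones, and 7.86 and 17.99 FPKM in the proximal ones (-2.44, SE 0.27, limma adjusted p = 0.00652). In middle against proximal colon 3 of the 13 rose and 1 fell, against 1.19% and 1.25% of all tested genes. Fads2 rose by 1.48 and Me1 fell by 2.25 on the log2 scale (limma adjusted p = 0.0257 and 0.0348). The summed FPKM of the 13 genes was 824 and 717 in the female and male distal libraries, 609 and 489.7 in the middle ones, and 369 and 335 in the proximal ones. The sum and the median differed in sign, since 9 of the 13 were lower in distal than in proximal colon by fitted value, with a median log2 difference of -0.30. Among 11 tested genes of other sterol transport and oxysterol metabolism, 2 were higher and 1 lower in distal than in proximal colon. Npc2, the lysosomal cholesterol carrier, was at 127 and 104 FPKM in the female and male distal libraries, 94.1 and 50.1 FPKM in the middle ones, and 47.1 and 38.9 FPKM in the proximal ones (1.41, SE 0.18, limma adjusted p = 0.00871). Stard5, a sterol-binding protein of the same family as Stard4, was at 17.7 and 23.2 FPKM in the distal libraries, 24.4 and 37.5 FPKM in the middle ones, and 39.5 and 72.3 FPKM in the proximal ones (-1.36, SE 0.14, limma adjusted p = 0.00522). Of 8 genes of the isoprenoid branch, 1 was lower, Nus1, a subunit of the enzyme that makes dolichol precursors (-0.74, SE 0.16, limma adjusted p = 0.0377). Of 11 genes of SREBP and reductase processing, 1 was lower, Pgrmc1, a haem-binding membrane protein (-0.84, SE 0.14, limma adjusted p = 0.0198). The distal against proximal counts of these last 3 lists stand beside the same 6.47% higher and 7.64% lower of all tested genes. In these 3 lists no gene was called between middle and proximal colon.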

How the data were processed

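Stranded polyadenylated RNA libraries were made from total RNA, per the labels' protocols. Each deposited file gives 1 FPKM value a gene, made by the authors. The submitters' processing notes name Cuffdiff 2.2.1, TopHat2 2.1.1, SAMtools 0.1.18, Bowtie2 2.2.8 and the mm10 build. Their settings, annotation and strand handling were not given in the sources used here. Count models were not used, since FPKM values are not counts. Values were tested as log2(FPKM + 1) with limma 3.58.1 in R 4.3.3, with region and sex as additive terms, variances moderated along the mean, 2 residual and 3.49 prior degrees of freedom, after a filter of at least 1 FPKM in at least 2 libraries (11815 of 24346 entries). Because sex is a term, the libraries of a sex are matched across regions. Differences of genes near 1 FPKM are understated.

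Members and lists were chosen with earlier results of these data known. Every member is accounted for. Values per library are given for those past the threshold and, per role, those with the highest mean or the largest distal against proximal difference, with a few others named after their values were seen. Depth was estimated from values under 0.2 FPKM of genes with 1 annotated transcript over 1500 bases and an assumed fragment of 200 bases. Positions come from GENCODE M21 (mm10). Exons overlap those of another gene for several members, among them Fdft1 (18.3% of its exonic bases, with Ctsb on the opposite strand) and Fdps (26.7%, with Gm43738), so their values are uncertain. Figures were drawn with matplotlib 3.10.9. The tests were repeated with sex left out, without each library in turn, with quantile normalization, without the variance trend, with median-ratio scaling, and with a pseudocount of 0.1. Filters of 5 FPKM and of none were also tried.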

Additional observations from a re-analysis of the deposited data

Results flagged for a closer look

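Several differences had opposite signs in the 2 sexes, each resting on 1 library per sex and region, and the difference between the sexes was not tested. For distal minus proximal colon, the median log2 difference of the mevalonate enzymes was -0.252 in females and 0.249 in males, that of the squalene enzymes was -0.296 in females and 0.493 in males, and that of the enzymes from lanosterol to cholesterol was -0.194 in females and 0.172 in males. Fdps alone was at -0.367 in females and 0.357 in males.

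For middle minus proximal colon, the squalene enzymes had medians of -0.277 in females and 0.516 in males, and the enzymes from lanosterol to cholesterol had medians of -0.208 in females and 0.253 in males. Among single genes, Hmgcs1 was at -0.834 in females and 0.459 in males, Lss at -0.334 and 0.392, Insig1 at -0.522 and 0.368, and Soat2 at -0.768 and 0.639, females first. Nr1h3 had the reverse signs, 0.671 in females and -0.436 in males. Single genes are listed where both sexes moved by at least 0.322 on the log2 scale. The differences for distal and for middle colon are taken from the same proximal libraries, so they are not independent.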

How the results depend on the processing

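The count of members higher in distal than in proximal colon was 3 with quantile normalization, with median-ratio scaling and with no replicate block (sex left out), 2 with a pseudocount of 0.1 or a minimum of 5 FPKM, 0 with no filter and 1 with no variance trend, and ranged from 0 to 6 when single libraries were left out. The count lower was 1 (Insig2, limma adjusted p = 0.0474) with a minimum of 5 FPKM and ranged from 0 to 1 without single libraries. Members higher in middle than in proximal colon ranged from 0 to 6 without single libraries. Ebp, Dhcr7 and Abcg8 kept their direction in every alternative that tested them (13, 13 and 12), with adjusted p from 0.029 to 0.256, 0.0143 to 0.274 and 0.0245 to 0.254. The filters, the variance trend, the sex term and the middle libraries leave the fitted distal minus proximal difference unchanged. Those alternatives therefore could not change its direction. Abcg8 had a log2 difference of 1.997 (limma adjusted p = 0.0503) with a pseudocount of 0.1. Without single libraries the distal minus proximal differences of Soat2, Lss and Stard4 ranged from -1.39 to 0.22, from -0.57 to 0.02 and from -0.30 to 0.22, with the positive values (0.22, 0.0243 and 0.22) seen without the female proximal library. Soat2 was called lower without the male proximal library (-1.39, limma adjusted p = 0.0293). The causes were not tested. Without the sex term, 1240 genes in all were called between distal and proximal colon (1668 with it), 24 between middle and proximal (289) and 17 between distal and middle (59). Without the male or the female distal library 334 and 779 were called between distal and proximal colon. No members were called between distal and middle colon or between the sexes in any alternative. Depth limits Npc1l1, Abca1, Abcg1, Abcg5, Abcg8 and Soat2 most.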
